A study of Mus musculus with 8 samples.

Results

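The p53 core circuit was followed in mouse livers through 10 genes, Trp53, its homologues Trp63 and Trp73, and the feedback regulators Mdm2, Mdm4, Rchy1, Cop1, Ppm1d, Ccng1 and Zmat3. They were taken by gene symbol from the table of raw counts, and all 10 were found among its 49585 genes. The study examined how p53R245W, the mouse counterpart of a frequent mutation in human liver cancer, acts beside a WT allele in livers stressed by diet. Bulk RNA-seq of stranded total RNA was performed on 8 livers of age-matched male mice, all fed a high fat, choline deficient (HFCD) diet for 3 months from day 21 after birth.

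The LP+/+ group held 3 control livers, the LPfl/+ group 2 and the LP245/+ group 3. LPfl/+ mice carried Alb-CreTG and the genotype Trp53fl/+, in which Cre deletes 1 allele. LP245/+ mice carried Alb-CreTG and Trp53wm-R245W/+, whose altered allele gives WT p53 until Cre converts it to p53R245W. The labels give the LP+/+ livers as Alb-Cre0, replicates 1 and 2 with an unrecombined Trp53fl/+ genotype and replicate 3 with an unrecombined Trp53wm-R245W/+ genotype, whereas the paper's results describe LP+/+ mice with Alb-Cre and its methods allow littermate controls with or without Cre. By these labels, Alb-Cre and a recombined Trp53 allele go together. In the comparisons with LP+/+ and in the slope over genotypes, they therefore cannot be told apart. Alb-Cre acts in hepatocytes and cholangiocytes, so the other liver cells of each mouse kept unrecombined alleles. In bulk tissue, fewer cells of a type and less RNA per cell cannot be told apart.

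p53 is a transcription factor that halts or kills stressed cells. It is held down by the ubiquitin ligase Mdm2 and by Mdm4, and Mdm2 is itself a p53 target, which closes a negative feedback loop. Further p53 targets, among them Ppm1d, Ccng1, Zmat3 and Rchy1, act back on p53, on Mdm2 or on the Trp53 transcript. In the liver, p53 takes part in the response to damage, to lipid overload and to proliferative stress.

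The libraries held between 26304526 and 31370714 counts. All 7 hepatocyte markers examined, albumin among them, passed the filter on low counts, and their summed normalized read count lay between 2748600 and 4013100 in the 8 livers. By library number the livers fell into 2 series, the first with the 3 LP245/+ livers and LP+/+ replicates 2 and 3, and the second with LP+/+ replicate 1 and both LPfl/+ livers. No series held both LP245/+ and LPfl/+ livers, so in their direct comparison series and genotype cannot be told apart. Comparisons with LP+/+ within a series are given beside the results below. Cdkn1a, which encodes the cell cycle inhibitor p21 and served here as the readout of p53 activity, had group means of 170 normalized read counts in LP+/+, 87.5 in LPfl/+ and 22.4 in LP245/+.

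The p53 paralogues share the DNA-binding domain in which residue 245 lies. The windows below show the 27 bases around that codon in the coding strand of each gene on GRCm38, with the codon in capitals, to place the altered residue among the homologues.
Trp53, codon 245 of 390, chr11:69589210-69589212, plus strand: gggggcatgaacCGCcgacctatcctt
Trp63, codon 318, chr16:25865316-25865318, plus strand: ggaggaatgaacAGAcgtccaatttta
Trp73, codon 267, chr4:154064676-154064678, minus strand: gggggcatgaatCGGaggcccatcctt
The codon lies in exon 7 of the transcript used for each gene, and the 3 codons encode the same amino acid although their letters differ. The Trp63 window shared 18 of 27 bases with that of Trp53, and the Trp73 window shared 22. Gene counts add the transcripts of both alleles, so WT and R245W transcripts of Trp53 are not separated in any value below.

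Of Trp53 and its 2 homologues, Trp53 alone passed the filter on low counts. Trp53 (chr11:69580359-69591873) had 1806 counts in all. Trp63 (chr16:25683763-25892102), best known for its role in stratified epithelium, had 13 counts over the 8 livers, from 0 to 4 in a liver. Trp73 (chr4:154056253-154140208), with known roles in neurons and ciliated cells, had 5 counts, from 0 to 2 in a liver, and shares 280 exon bases with Trp73os on the opposite strand. A count of 0, as Trp63 had in LP+/+ replicate 2 and LP245/+ replicate 3, allows up to 0.0989 and 0.101 counts per 1000000 in those libraries, and intervals of this kind cover counting error only. Both genes fell under the filter on low counts and were not tested, which leaves 8 of the 10 genes in the comparisons.

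Set per kilobase of exon and scaled to libraries of 1000000 counts, the transcripts spanned a wide range of levels. Ccng1 had the highest level of the 10 genes, 17.3 ± 2.95 (SD, n = 8 livers). Mdm2 came next with 6.85 ± 0.944, close to Rchy1 with 5.80 ± 0.354, and the livers of these 2 genes overlapped. Mdm4 followed with 3.47 ± 0.429, Cop1 with 2.63 ± 0.263, Ppm1d with 2.28 ± 0.386 and Trp53 with 1.96 ± 0.569. The livers of Cop1 and Ppm1d overlapped, as did those of Ppm1d and Trp53. Ccng1 and Mdm2, Rchy1 and Mdm4, and Mdm4 and Cop1 did not overlap, the last pair by a narrow gap between 3.03 and 3.08. Zmat3 was lower, at 0.595 ± 0.140, and its livers did not overlap with those of Trp53. Trp63 and Trp73 were at 0.00685 and 0.00404. The level divides by the union of all annotated exons, 17516 bases for Cop1 and 14798 for Mdm4 but 3173 for Ppm1d, and genes with long alternative exons therefore appear lower on this scale.

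**Figure D1:**
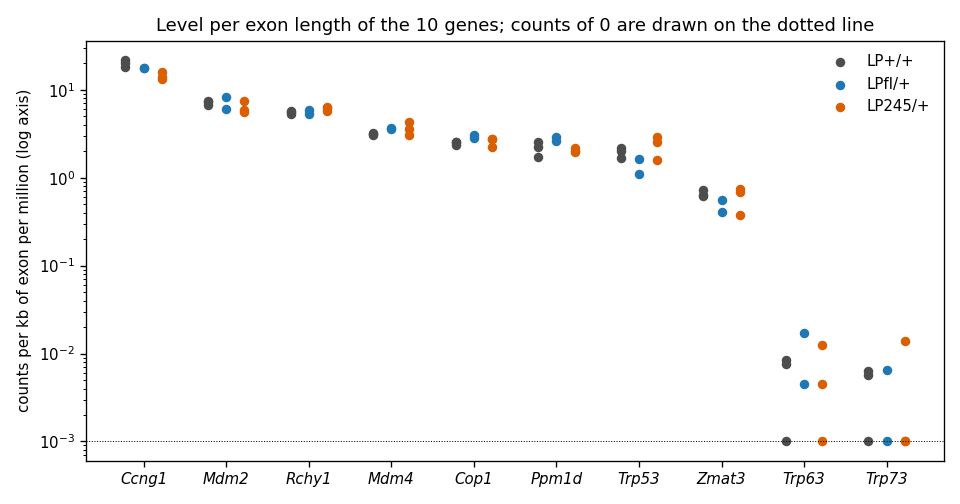
Each point is a liver, coloured by genotype, placed by its counts per kilobase of exon in a library of 1000000 counts, on a log axis. Ccng1 lies above 13 in every liver, the other 7 tested genes lie between 0.378 and 8.31, and Trp63 and Trp73 lie at or below 0.0172, with counts of 0 drawn on the dotted line.

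In normalized read counts, which are counts divided by the size factor of the library, Trp53 stood at 226, 258 and 202 in the LP+/+ livers, at 127 and 178 in the LPfl/+ livers, and at 316, 294 and 193 in the LP245/+ livers. On this scale both LPfl/+ livers were below every liver of the other 2 genotypes, and LP245/+ replicate 3 lay below the LP+/+ livers while the other LP245/+ livers lay above them. The group means were 229 ± 28.1 (SD, n = 3) in LP+/+, 152 ± 36.1 (n = 2) in LPfl/+ and 268 ± 65.4 (n = 3) in LP245/+.

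The log2 fold change of Trp53 in LPfl/+ against LP+/+ was -0.58 (SE 0.24, 95% interval -1.12 to -0.04, unadjusted p = 0.0388, adjusted p = 0.718 from edgeR). In LP245/+ against LP+/+ it was 0.24 (SE 0.21, interval -0.23 to 0.71, adjusted p = 0.883). LP245/+ against LPfl/+ gave 0.82 (SE 0.24, interval 0.27 to 1.36, unadjusted p = 0.00755, adjusted p = 0.407). None of these passed the cutoff, set at a log2 fold change of 1 or more in either direction together with an adjusted p not above 0.05 over the 16496 genes tested. Within a library series the log2 ratio of Trp53 was -0.57 for LPfl/+ to LP+/+ and 0.22 for LP245/+ to LP+/+. The exact permutation test cannot go below p = 0.1 for 3 livers against 3 or against 2, so single genes could not reach 0.05 by that test.

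**Figure D2:**
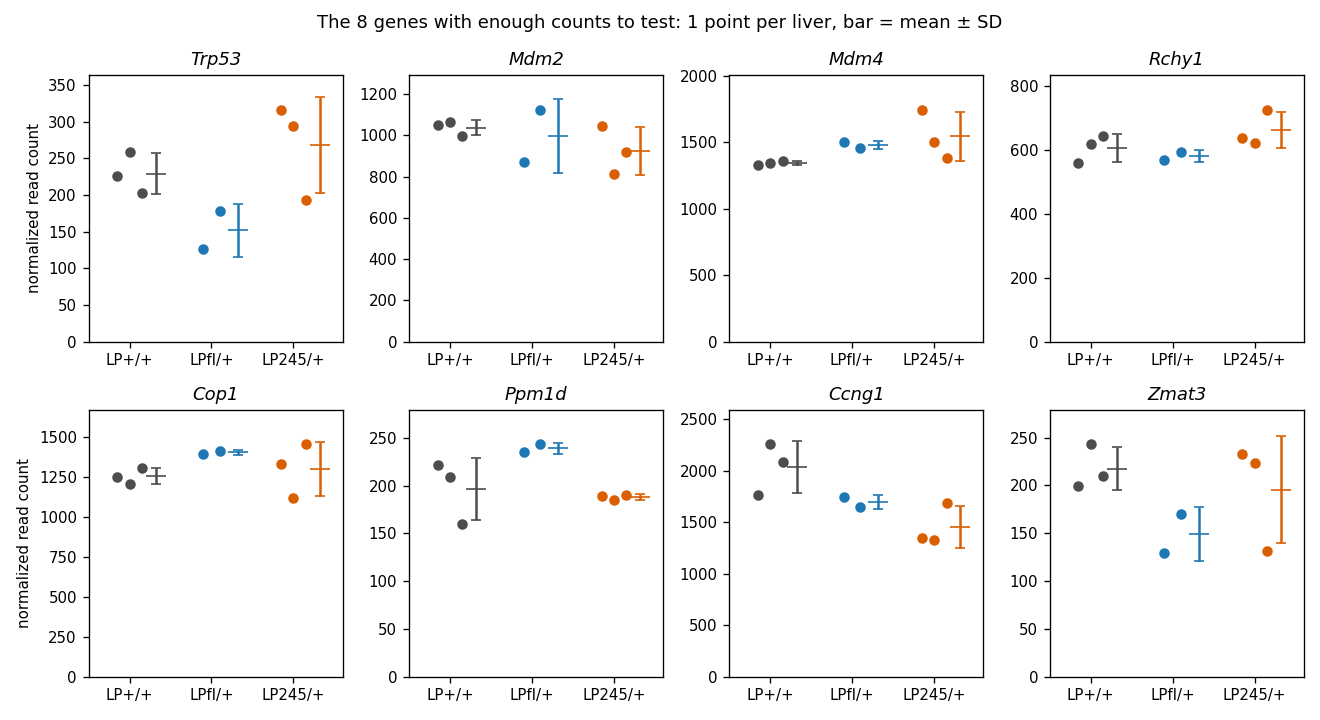
Normalized read counts of the 8 tested genes are shown with 1 point per liver and a bar for the mean ± SD of each genotype, on axes that start at 0. Trp53 and Zmat3 are lower in both LPfl/+ livers than in any LP+/+ liver, and Ccng1 is lower in all 3 LP245/+ livers than in any LP+/+ liver.

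Among the 8 tested genes, 0 passed the cutoff in any of the 3 comparisons between genotypes. Over all genes tested, the share past the cutoff was 0.00606% in LP245/+ against LP+/+, where Cdkn1a was the single gene, 0% in LPfl/+ against LP+/+ and 0% in LP245/+ against LPfl/+. DESeq2 also called 0 of the 8. At an unadjusted p under 0.05, 1 of the 8 was found in each comparison, against 5.93%, 6.89% and 8.51% of all genes. That gene was Ccng1 in LP245/+ against LP+/+, and Trp53 in the other 2. Both comparisons with LP+/+ use the same 3 control livers.

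Counting genes whose groups did not overlap, LP245/+ stood apart from LP+/+ in 2 of 8, against 11.8% of all genes tested, namely Mdm4 (higher) and Ccng1 (lower). LPfl/+ stood apart from LP+/+ in 6 of 8, against 25.1% of all genes, with Trp53, Ccng1 and Zmat3 lower and Mdm4, Cop1 and Ppm1d higher. LP245/+ stood apart from LPfl/+ in 3 of 8, against 25.4% of all genes, with Trp53 and Rchy1 higher and Ppm1d lower. With 2 LPfl/+ livers, such separation is frequent across the transcriptome. Which genes stood apart depended on the scaling. By library totals alone, a scaling added after the data were seen, LP245/+ stood apart from LP+/+ in 1 of 8 (Ccng1, lower), against 10.7% of all genes, and Mdm4 overlapped. LPfl/+ stood apart from LP+/+ in 6 of 8 as before, against 23.7%. LP245/+ stood apart from LPfl/+ in 3 of 8, against 26%, with Cop1, Ppm1d and Ccng1 lower, while Trp53 and Rchy1 overlapped.

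**Figure D3:**
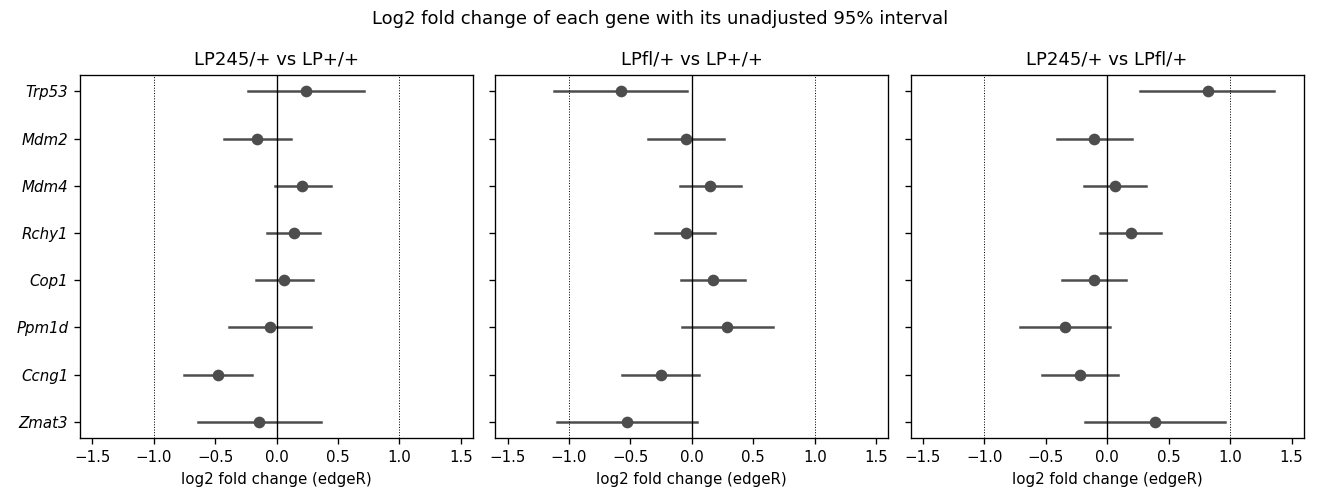
Points are edgeR log2 fold changes of the 8 tested genes in the 3 comparisons, bars are unadjusted 95% intervals and dotted lines mark the fold cutoff of 1. The intervals that leave out 0 are those of Ccng1 in LP245/+ against LP+/+ and of Trp53 in both comparisons that involve LPfl/+.

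The Mdm inhibitors showed small differences. Mdm2 (chr10:117688875-117710758), the ubiquitin ligase that marks p53 for degradation, had 1049, 1066 and 997 normalized read counts in the LP+/+ livers, 868 and 1124 in the LPfl/+ livers, and 1044, 811 and 918 in the LP245/+ livers. All 3 genotypes overlapped. Its log2 fold change was -0.16 in LP245/+ (interval -0.43 to 0.12) and -0.05 in LPfl/+ (interval -0.36 to 0.26) against LP+/+.

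Mdm4 (chr1:132959484-133030561), a relative of Mdm2 that binds p53 and blocks its activation domain, had 1329, 1345 and 1355 normalized read counts in the LP+/+ livers, 1500.5 and 1458 in the LPfl/+ livers, and 1744, 1499 and 1384 in the LP245/+ livers. On this scale all 5 livers with Alb-CreTG were above the 3 LP+/+ livers, and the spread among LP+/+ livers was narrow, with an SD of 12.9. Scaled by library totals alone, LP245/+ replicate 3 lay below the 3 LP+/+ livers, while the other livers with Alb-CreTG stayed above them. The share of all genes with LP245/+ and LPfl/+ both above LP+/+ was not taken. The log2 fold change was 0.21 in LP245/+ (SE 0.10, interval -0.01 to 0.44, unadjusted p = 0.0635, adjusted p = 0.831) and 0.15 in LPfl/+ (SE 0.11, interval -0.10 to 0.40, adjusted p = 0.813 from edgeR). Within a library series these ratios were 0.19 and 0.15. Without LP245/+ replicate 1, the highest of the 8 livers, the LP245/+ value was 0.10.

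Mdm4 counts per Mdm2 count, a ratio that does not depend on library size, ranged from 1.26 to 1.36 in the LP+/+ livers. It was 1.73 and 1.30 in the LPfl/+ livers and 1.67, 1.85 and 1.51 in the LP245/+ livers. The 3 LP245/+ livers were above the 3 LP+/+ livers, and the LPfl/+ livers spanned the gap. The ratio of Mdm4 to Mdm2 was not among the planned comparisons and carries no test. How often other pairs of genes separate these groups was not examined.

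The other ubiquitin ligases of p53 differed little between genotypes. Rchy1 (chr5:91948904-91963068), also known as Pirh2, had 558, 619 and 644 normalized read counts in the LP+/+ livers, 568 and 594 in the LPfl/+ livers, and 638, 621 and 726 in the LP245/+ livers. The LP245/+ livers were all above the LPfl/+ livers, with a log2 fold change of 0.19 (SE 0.11, interval -0.06 to 0.44, adjusted p = 0.688 from edgeR), and overlapped with LP+/+. Rchy1 shares 680 exon bases with Thap6 on the opposite strand, which had 1924 counts against 5000 for Rchy1, and the strand setting of the counting is not given in the sources used here. Cop1 (chr1:159232320-159347640), a ligase that also targets Jun-type factors, had 1245, 1206 and 1305 in the LP+/+ livers, 1392 and 1413 in the LPfl/+ livers, and 1328, 1114.5 and 1452 in the LP245/+ livers. Both LPfl/+ livers were above LP+/+, with a log2 fold change of 0.17 (SE 0.12, interval -0.09 to 0.43, adjusted p = 0.793), whereas the LP245/+ livers lay on both sides.

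The phosphatase Ppm1d (chr11:85311244-85347066), or Wip1, removes activating phosphates from p53 and from its kinases. Its normalized read counts were 221, 209 and 160.0 in the LP+/+ livers, 235 and 243 in the LPfl/+ livers, and 189, 185 and 190.4 in the LP245/+ livers. The LPfl/+ livers were the 2 highest of the 8, and LP+/+ replicate 3 was the lowest. The log2 fold change was 0.29 in LPfl/+ (SE 0.16, interval -0.08 to 0.66, adjusted p = 0.758) and -0.05 in LP245/+ (SE 0.15, interval -0.39 to 0.28) against LP+/+, and -0.34 (SE 0.16, interval -0.71 to 0.02, unadjusted p = 0.0640, adjusted p = 0.603 from edgeR) in LP245/+ against LPfl/+. Within a series the ratio of LPfl/+ to LP+/+ was 0.11, less than the 0.29 over both series.

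Ccng1 (chr11:40748552-40755311) encodes cyclin G1, a p53 target that brings the phosphatase PP2A to Mdm2. It had 1762, 2254 and 2084.5 normalized read counts in the LP+/+ livers, 1745 and 1644 in the LPfl/+ livers, and 1341, 1328 and 1686 in the LP245/+ livers. The LP245/+ and LPfl/+ livers were all below LP+/+, and LP245/+ replicate 3 lay between the 2 LPfl/+ livers. The gap between LPfl/+ replicate 1 (1745) and LP+/+ replicate 1 (1762) was narrow. The share of all genes with LP245/+ and LPfl/+ both below LP+/+ was not taken. The means were 2034 ± 250 (SD, n = 3) in LP+/+, 1694 ± 71.3 (n = 2) in LPfl/+ and 1452 ± 203 (n = 3) in LP245/+.

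Of the 8 tested genes, Ccng1 had the lowest unadjusted p in LP245/+ against LP+/+. The log2 fold change was -0.48 (SE 0.12, interval -0.75 to -0.20, unadjusted p = 0.00350, adjusted p = 0.794 from edgeR), and DESeq2 gave -0.49 with an adjusted p of 0.328. LPfl/+ against LP+/+ gave -0.25 (SE 0.14, interval -0.57 to 0.06, adjusted p = 0.757). Within the first series, LP245/+ to LP+/+ had a log2 ratio of -0.58. Within the second series, LPfl/+ to LP+/+ replicate 1 had a log2 ratio of -0.06, so the livers of that series, with a single LP+/+ liver among them, hardly differed.

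The study ranked genes by the slope and R2 of their genotype means from LP+/+ over LPfl/+ to LP245/+. Here the slope was taken over the 8 livers, with the genotypes coded as 1, 2 and 3, so that the spread between livers enters R2. Ccng1 had a slope of -291 normalized read counts per step and an R2 of 0.70 over the 8 livers. Over the 8 livers, 1 of the 10 genes, Ccng1, had a slope below -1 with an R2 above 0.6, against 0.506% of the 49585 genes in the table. On the 3 genotype means, an input added after the data were seen, 2 of the 10 met these criteria, against 7.02% of the same 49585 genes. They were Ccng1, with an R2 of 0.991, and Mdm2, with a slope of -56.4 and an R2 of 0.977, which was 0.23 for Mdm2 over the livers. Genes without a count cannot reach such a slope, so both shares would be higher among genes with counts. The shares over the 16496 tested genes were not taken, and no excess among the 10 is read from them. In edgeR the log2 change of Ccng1 was -0.24 per step (SE 0.06, unadjusted p = 0.00221, adjusted p = 0.914). It was the 1 of 8 with an unadjusted p under 0.05, against 5.1% of all genes, and 0 of the 8 tested genes passed an adjusted p of 0.05, against 0.0121% of all genes. By exact permutation of the livers over the genotypes, 6 of 560 arrangements gave a slope at least as large (2-sided p = 0.0107), a single-gene value that is not adjusted for the genes examined. Over the livers the next highest R2 was that of Mdm4, at 0.46 with a slope of 99.7 upward (exact permutation p = 0.0571). Trp53 itself had an R2 of 0.08.

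The promoters were searched for the p53 response element, a pair of p53 half-sites of 10 bases each with a spacer of up to 13 bases, on both strands. The windows, from RefSeq on GRCm38.p6, run from 250 bases before to 50 bases after the start of a gene. Of the 10 genes, 8 have at least 1 window there. Trp73, Mdm4, Rchy1 and Cdkn1a have 2 windows each, of which the better match was taken. The shares below count single windows, so they are too low as a background for these genes. Trp63 and Zmat3 were not matched to a window. The Ccng1 window holds the closest match among the 8, shown here because Ccng1 had the lowest log2 fold change of the 8 tested genes in LP245/+ against LP+/+. It lies 195 bases before the start, with 1 mismatch in 20 bases and no spacer, and the stretch below gives it in capitals with its surroundings, from 220 to 151 bases before the start on the coding strand.
Ccng1, chr11:40755437-40755506, minus strand: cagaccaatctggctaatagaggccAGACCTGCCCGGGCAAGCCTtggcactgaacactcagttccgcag
A match with no more mismatches, at any spacer of up to 13 bases, is found in 1.09% of the 32851 promoter windows. The best match had 2 mismatches in Trp73, which 10.1% of windows reach, 3 mismatches in Trp53, Mdm4, Rchy1 and Ppm1d, which 45.1% reach, and 4 in Mdm2 and Cop1, which 89.3% reach. For comparison, Cdkn1a had a match with 0 mismatches and a spacer of 12 bases, and 0.0731% of windows have 0 mismatches at any such spacer. A match of letters describes the sequence and is not a measured binding site. Only these windows were searched, so sites farther upstream or inside a gene would be missed. A poor match here, as for Mdm2, does not mean that the gene lacks a p53 site.

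Zmat3 (chr3:32334792-32366014), or Wig1, is a p53-induced zinc finger protein that binds RNA, the Trp53 transcript included. Its normalized read counts were 199.99, 243 and 209.9 in the LP+/+ livers, 129.7 and 169.6 in the LPfl/+ livers, and 232.5, 223 and 131 in the LP245/+ livers. Both LPfl/+ livers were below LP+/+, and LP245/+ was split, with replicate 3 near the lowest LPfl/+ liver and the other 2 among the LP+/+ values. The log2 fold change was -0.53 in LPfl/+ (SE 0.25, interval -1.10 to 0.04, unadjusted p = 0.0643, adjusted p = 0.743 from edgeR) and -0.14 in LP245/+ (SE 0.22, interval -0.64 to 0.36) against LP+/+. The LP245/+ value turned to 0.07 without LP245/+ replicate 3, the liver with the lowest Trp53 count of its group. Within a series the ratios were -0.42 for LPfl/+ and -0.21 for LP245/+.

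The relation of each gene to Trp53 was then examined over the 8 livers, for 7 genes, on log2(normalized read count + 1). Zmat3 had the highest correlation of the 7, with Pearson's r = 0.84 (exact permutation p = 0.0063) and Spearman's rho = 0.88 (exact permutation p = 0.00724). Among the 16495 other tested genes, 8.24% had an exact p of at most 0.05 and 1.3% had an r at least as high as Zmat3, which was at position 214. In edgeR, Zmat3 was higher by 0.71 on the log2 scale for each doubling of Trp53 (SE 0.19, unadjusted p = 0.00335, adjusted p = 0.358), and 0 of 7 genes passed an adjusted p of 0.05, as did 0% of all genes. At an unadjusted p under 0.05 there was 1 of 7, Zmat3, against 9.01% of all genes.

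Taking deviations from the genotype means, the r of Zmat3 with Trp53 was 0.96 (exact permutation p = 0.0417 over 72 arrangements). Within genotype and library series it was 0.97 (exact permutation p = 0.0417 over 24 arrangements, the smallest they can give). Without the 2 livers farthest from the median of Trp53, LPfl/+ replicate 1 and LP245/+ replicate 1, r was 0.71 (exact permutation p = 0.110). The p under 0.05 over all livers was thus not kept with these 2 left out, which also leaves fewer livers to test. With any 1 liver left out, r lay between 0.74 and 0.93.

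The number of Zmat3 counts per Trp53 count was 0.885, 0.941 and 1.04 in the LP+/+ livers and 1.02 and 0.955 in the LPfl/+ livers. It was 0.735, 0.760 and 0.679 in the LP245/+ livers. The livers of LP+/+ and LPfl/+ overlapped, while each LP245/+ liver lay below the 5 others. This ratio was examined after the values of both genes were known and carries no test. Mdm2 and Ccng1 counts per Trp53 count were also taken. For these, LP245/+ replicate 3, at 4.75 and 8.72, lay within the LP+/+ ranges of 4.13 to 4.93 and 7.795 to 10.3. How often other genes separate LP245/+ by such a ratio was not examined.

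**Figure D4:**
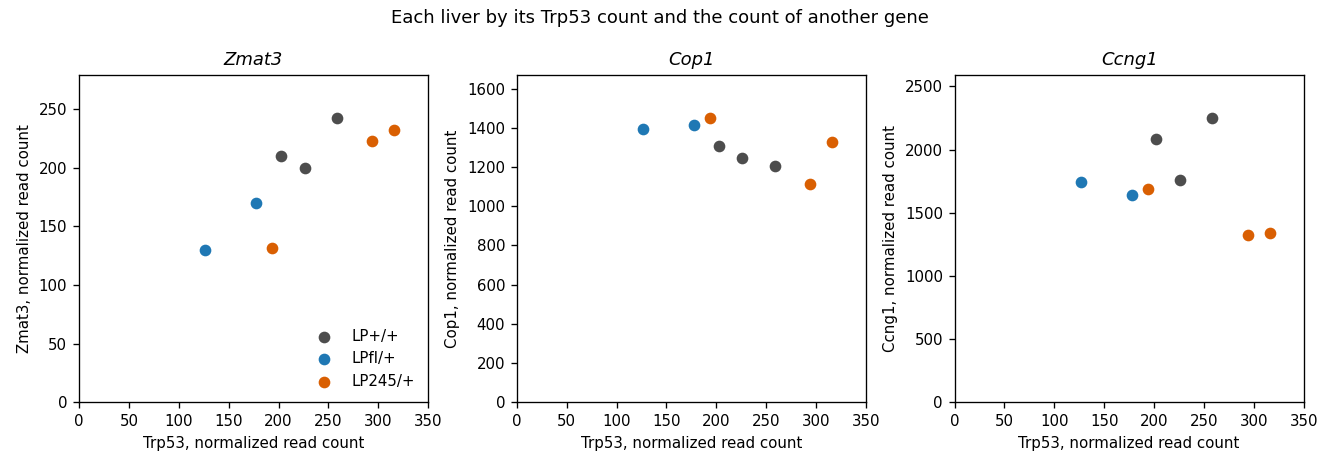
Each point is a liver, placed by its normalized read count of Trp53 on the x axis and that of Zmat3, Cop1 or Ccng1 on the y axis, on linear axes from 0 and coloured by genotype. Zmat3 is lowest in the livers with little Trp53, from 130 at a Trp53 of 127, and the 3 LP245/+ livers lie lower for their Trp53 count than the others.

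Cop1 ran in the opposite direction, with r = -0.65 (exact permutation p = 0.0788) and rho = -0.67 (exact permutation p = 0.0831). Without the same 2 livers r was -0.95 (exact permutation p = 0.00556), and by deviations from the genotype means it was -0.57 (exact permutation p = 0.472). Ppm1d had r = -0.47 (rho = -0.60), Ccng1 -0.35 (rho = -0.24), Mdm4 0.29 (rho = 0.05), Rchy1 0.24 (rho = 0.24) and Mdm2 0.12 (rho = 0.00), with exact permutation p-values between 0.132 and 1.0 for both measures. For Mdm2, Mdm4, Rchy1 and Ppm1d the sign turned in at least 1 of the alternatives examined. For Ccng1 no relation to Trp53 was resolved, and the 2 LP245/+ livers highest in Trp53 were lowest in Ccng1. Its r was -0.55 by deviations from the genotype means (exact permutation p = 0.222). Within genotype and library series it was -0.73 (exact permutation p = 0.167).

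The 5 genes most like Trp53, among 10228 genes with a mean normalized read count of at least 100, were Ccnd2 (r = 0.97), Wiz (0.96), Elk3 (0.96), Jcad (0.96) and Plpp3 (0.95). These values are a description over 8 livers, and every gene shares the library and the depth of its liver with Trp53. Markers of other liver cells had slopes on Trp53 as well. All 6 endothelial markers had a positive slope on Trp53, 3 of them (Stab2, Kdr and Cdh5) at an unadjusted p under 0.05, against 5.64% of all genes with such a positive slope, and their summed level was 9969 to 12926 in the LP+/+ livers, 8102.5 and 10699 in the LPfl/+ livers and 11190 to 12193 in the LP245/+ livers. Of 8 stellate cell and fibroblast markers, 5 had a positive and 3 a negative slope, and the 2 at that threshold, Col1a1 and Reln, were positive, with sums of 15007 to 16357 in the LP+/+ livers, 12637 and 15644 in the LPfl/+ livers and 15223 to 15942 in the LP245/+ livers. Of 8 macrophage markers, 7 had a negative and 1 a positive slope, and the 2 at that threshold, Clec4f and Vsig4, were negative, against 3.37% of all genes, with sums of 9892 to 11618, 9571.5 and 13264, and 8418 to 10235 in the same order. Whether these cells contributed to the relation between Zmat3 and Trp53 was not tested.

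The wider p53 circuit was described through 4 further lists. Of 19 other ubiquitin ligases and deubiquitinases of p53 or Mdm2, 0 passed the cutoff in the comparisons with LP+/+, and the median log2 fold change was -0.07 in LP245/+ and -0.04 in LPfl/+, against 0.00 for all genes in both. The lowest unadjusted p in both belonged to Usp2, a deubiquitinase that stabilizes Mdm2. Its mean normalized read count was 78.6 in LP+/+, 45.04 in LPfl/+ and 164 in LP245/+, with log2 fold changes of 1.07 (SE 0.39, adjusted p = 0.794) in LP245/+ and -0.79 (SE 0.47, adjusted p = 0.775) in LPfl/+ from edgeR. Next came Mkrn1, a ligase of p53, at -0.24 in LP245/+, and Trim24, another ligase of p53, at -0.30 in LPfl/+.

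Of 21 kinases, acetyltransferases, methyltransferases and deacetylases of p53, 0 passed the cutoff, and the median log2 fold change was 0.04 in LP245/+ and -0.03 in LPfl/+ against LP+/+. The checkpoint kinase Chek2 was at -0.47 (SE 0.20) and Atm, the kinase that signals DNA breaks, at 0.16 in LP245/+. In LPfl/+ the methyltransferase Smyd2 was at 0.42 (SE 0.18) and the kinase Dyrk2 at 0.29. Of 17 cofactors and Mdm2-binding inhibitors, 16 were tested and 0 passed, with medians of -0.01 in LP245/+ and 0.00 in LPfl/+. Nqo1, an oxidoreductase that shields p53 from the proteasome, had means of 199, 90.0 and 149 in LP+/+, LPfl/+ and LP245/+, and a log2 fold change of -1.14 (SE 0.30, adjusted p = 0.697 from edgeR) in LPfl/+. Banp, a p53-binding nuclear protein, was at -0.72 in LPfl/+ and 0.43 in LP245/+.

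The last list held 28 p53 targets outside the 10 genes. It was chosen with earlier results of these data known. The paper names 2 of its genes, Cdkn1a and Aen, among the top genes of its slope ranking. The counts below are therefore a description. In LP245/+ against LP+/+, 21 of 28 were below 0 with a median log2 fold change of -0.30, against 0.00 for all genes. At an unadjusted p under 0.05, 8 were lower, against 2.38% of all genes. The cutoff was passed by 1, Cdkn1a, at -2.91 (SE 0.27, adjusted p = 0.0155 from edgeR), against 0.00606% of all genes. With a liver left out, Cdkn1a lay between -3.09 and -2.68, and the adjusted p was 0.103 without LP+/+ replicate 3 (-2.85) and 0.203 without LP245/+ replicate 2 (-3.00). DESeq2 gave Cdkn1a a log2 fold change of -2.92 with an adjusted p of 9.3e-18. The adjusted p of Cdkn1a thus depended on the setting, while its log2 fold change kept its direction. Aen, an exonuclease of the apoptotic response, came next at -0.73 (SE 0.12, adjusted p = 0.569). In LPfl/+ against LP+/+, 18 of 28 were below 0, the median was -0.15 and 4 were lower at that threshold against 2.67% of all genes, with Cdkn1a at -0.95 (SE 0.27) and Btg2, an antiproliferative gene, at -0.85 (SE 0.28), both with an adjusted p of 0.697. The feedback regulators among the 10 genes had smaller log2 fold changes than Cdkn1a. In LP245/+ against LP+/+ they lay between -0.48 for Ccng1 and 0.21 for Mdm4, and the interval of Mdm2, with a lower bound of -0.43, leaves out a change as large as that of Cdkn1a. No relation of Cdkn1a to Trp53 counts was resolved, with r = -0.39 (exact permutation p = 0.336) and rho = -0.31 (exact permutation p = 0.462) over the 8 livers.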

How the data were processed

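RNA was measured in 8 livers. The authors aligned paired-end reads to GRCm38 with STAR and deposited raw counts per gene on a GENCODE annotation. STAR's version, the GENCODE release and the strand setting are not given in the sources used here. Gene IDs were matched without their version to GENCODE M21, which named 49326 of 49585 genes. Of these IDs, 5577 had a version other than that in M21. The table had 0 columns without a sample.

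Groups came from the sample labels. Nothing states how many cages or litters the mice came from, and p-values measure the spread between these livers. Genes were filtered by filterByExpr, which kept 16496, scaled by TMM and tested with edgeR's quasi-likelihood F test (edgeR 4.0.16, R 4.3.3) in 1 fit over all livers, with Benjamini-Hochberg adjustment over all genes tested. The cutoff was a log2 fold change of 1 or more in either direction and an adjusted p not above 0.05. The slope over genotypes and the slope on Trp53 used the adjusted p alone. For normalized read counts, each library was divided by its size factor from DESeq2 1.42.0. Relations to Trp53 used log2(normalized read count + 1) and all 40320 pairings. Tests are 2-sided. On simulated data, edgeR recovered 200 of 200 genes changed by known folds in LP245/+ against LP+/+, with 5 other calls among 16496 genes. This recovery checks that the test runs properly and does not measure its power in these livers. In the livers, Cdkn1a had a log2 fold change of -1.96 in LP245/+ against LPfl/+, with an adjusted p of 0.321 from edgeR. Smaller changes in the tested genes could therefore be missed. Libraries were compared in 28 pairs, and the chi-square per gene was at least 18.7, so none repeats another.

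The 10 genes, the 4 further lists and the markers were chosen with earlier results of these data known. Named genes are the 10, Cdkn1a, the 2 with the lowest unadjusted p of each further list in each comparison with LP+/+ and any past the cutoff, and the 5 most like Trp53. Markers named beside the relation to Trp53, Thap6 and Trp73os were chosen after their values were seen. Alternatives were DESeq2, other scalings and filters, a replicate block, library series, only the groups compared, and each liver left out. The pseudogenes Trp53-ps and Mdm4-ps had at most 1 count in a liver. Promoter windows are from RefSeq, and codon windows from GENCODE M21 transcript sequences, with positions on GRCm38.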

Additional observations from a re-analysis of the deposited data

How the results depend on the processing

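Under the alternatives, 0 of the 8 tested genes passed the cutoff in any comparison. Of 602 values for these genes from edgeR or DESeq2, 582 kept their direction and 20 turned. Fits that left LPfl/+ with 1 liver assume that it varies like the other genotypes. Precision is limited by 2 to 3 livers a genotype, and Trp63 and Trp73 by depth. The cause of the turns below was not tested.

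Genes past the cutoff over the whole table numbered 1, 0 and 0 in LP245/+ against LP+/+, LPfl/+ against LP+/+ and LP245/+ against LPfl/+, and 2 and 0 for the slopes over genotypes and on Trp53. With DESeq2 the first 4 were 10, 9, 56 and 6. Without a filter on low counts all 5 were 20, 14, 122, 4 and 6. With library series as a covariate the first 3 were 3, 3 and 10. LP245/+ against LPfl/+ gave 51 with the livers of these groups alone. With a liver left out the 5 counts ranged from 0 to 5, 0 to 59, 0 to 47, 0 to 1 and 0 to 4, and the 59 and 47 came without LP+/+ replicate 1. Same-numbered livers did not deviate together (correlations from -0.078 to 0.029 over 7 pairs), so no pairing by number was seen. Deviations from the mean of 2 or 3 livers are tied to one another, so this check cannot exclude a pairing. A replicate block gave 0 genes in LP245/+ against LP+/+ and 0 for the slope over genotypes, and turned the direction of none of the 8 genes. Under the block Cdkn1a kept its log2 fold change in LP245/+ (-2.93, adjusted p = 0.0596) and its step over genotypes (-1.43, adjusted p = 0.157).

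Library series as a covariate turned Ppm1d to 0.04 in LP245/+ against LP+/+ and to 0.03 per genotype step, Rchy1 to 0.07 in LPfl/+ against LP+/+, and on Trp53 Rchy1 to -0.12 and Ppm1d to 0.05. Library totals alone turned Mdm2 to 0.02 and Rchy1 to 0.01 in LPfl/+ against LP+/+. Genotype added to the fit on Trp53 turned Rchy1 to -0.16 and Ppm1d to 0.15. With a liver left out, LP245/+ against LP+/+ ranged from -0.19 to 0.04 for Ppm1d (turned without LP+/+ replicate 1), and from -0.03 to 0.16 for Cop1 and from -0.29 to 0.07 for Zmat3 (without LP245/+ replicate 3). LPfl/+ against LP+/+ ranged from -0.26 to 0.11 for Mdm2 (without LPfl/+ replicate 1). LP245/+ against LPfl/+ ranged from -0.28 to 0.10 for Mdm2 (without LPfl/+ replicate 2) and from -0.03 to 0.14 for Mdm4 (without LP245/+ replicate 1). The step over genotypes ranged from -0.01 to 0.09 for Cop1 and from -0.17 to 0.01 for Zmat3 (without LP245/+ replicate 3). The slope on Trp53 ranged from -0.15 to 0.18 for Mdm2 and from -0.05 to 0.11 for Rchy1 (without LPfl/+ replicate 1), and from -0.05 to 0.27 for Mdm4 (without LP245/+ replicate 1).

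Of 98 correlations with Trp53, 85 kept direction and side of p = 0.05, 9 turned and 4 changed side. Without the 2 livers farthest in Trp53, r was -0.55 for Mdm2, -0.21 for Rchy1, -0.95 for Cop1 and 0.71 for Zmat3. By deviations from the means of genotype, or of genotype within series, Rchy1 had -0.51 and -0.67, and Ppm1d 0.28 and 0.37. On raw counts Cop1 had -0.74 (exact permutation p = 0.0291). With a liver left out, r ranged from -0.32 to 0.60 for Mdm2 and from -0.10 to 0.58 for Rchy1 (turned without LPfl/+ replicate 1), from -0.32 to 0.61 for Mdm4 (turned without LP245/+ replicate 1), and from -0.82 to -0.55 for Cop1 (past the threshold without LP245/+ replicate 1).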
